A study of Homo sapiens with 10 samples.

Results

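The 43 genes described here act at the G1/S transition and in DNA replication. They were listed by symbol, each symbol matched 1 of the 63140 gene identifiers of the count table, and all 43 were among the 16382 genes that passed the filter on low counts. By role they comprise 4 G1/S regulators, 10 genes of origin recognition and licensing, 6 of helicase activation, 14 of polymerases, clamp and Okazaki fragment maturation, 4 of deoxynucleotide supply, and 5 of chromatin copying and histone supply. The cells were HS-SY-II, an established human line of synovial sarcoma, a soft-tissue tumour that carries a fusion of SS18 with an SSX gene. They were given 100 nM WA-68 for 12, 24, 48 or 96 h, or the DMSO vehicle. WA-68 is a PROTAC, a bifunctional molecule that brings a protein to the degradation machinery, and is directed at BRD9, a bromodomain protein of non-canonical BAF, a chromatin remodeller. Each of the 5 groups held 2 biological replicates of this 1 line, 10 libraries of poly(A) RNA in all. A degrader acts on the protein, so the BRD9 transcript is no check of it. The labels give DMSO cultures no harvest time, so time with WA-68 and time in culture cannot be told apart.

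A cell commits to S phase when cyclin-dependent kinases inactivate RB and free E2F factors, which switch on the genes for copying DNA. Before that, the origin recognition complex, CDC6 and CDT1 load rings of MCM2 to MCM7 onto DNA. MCM10, CDC45 and the GINS complex turn loaded rings into active helicases, and polymerases with their sliding clamp then copy both strands. Transcripts of these genes rise and fall with the cell cycle in dividing cells. In RNA from a whole culture, fewer cells in S phase and less of each transcript per cell cannot be told apart.

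Many of these genes carry E2F sites at their starts, and promoters are shown to let that sequence be seen beside the expression values. RefSeq promoter windows (GRCh38.p14, 250 bases before to 50 after the RefSeq start of the gene, 300 bases) were given for 38 of the 43 genes, and not for CCNE2, MCM4, MCM5, GINS4 and RPA2. The words TTTCCCGC, TTTGGCGC, TTTCGCGC and TTTGCCGC, forms of the E2F site, were searched on both strands, and words that overlapped were each counted. At least 1 of them was present in 21 of the 38 windows (55.3%), in 591 of 10803 windows of tested genes (5.47%) and in 908 of all 27305 windows (3.33%). The 4 genes below have the smallest p in the joint edgeR test of the 4 times among those that hold a word. Each is printed 5′ to 3′ on the strand of the gene, from 200 bases before the start to 20 after it (220 bases), with the E2F words in capitals.
MCM2 (chr3:127598211-127598430, plus strand): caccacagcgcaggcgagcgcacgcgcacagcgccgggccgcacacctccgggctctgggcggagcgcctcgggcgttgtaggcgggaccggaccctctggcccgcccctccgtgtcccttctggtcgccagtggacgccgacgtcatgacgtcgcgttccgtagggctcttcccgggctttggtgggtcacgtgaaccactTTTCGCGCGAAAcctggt
TYMS (chr18:657453-657672, plus strand): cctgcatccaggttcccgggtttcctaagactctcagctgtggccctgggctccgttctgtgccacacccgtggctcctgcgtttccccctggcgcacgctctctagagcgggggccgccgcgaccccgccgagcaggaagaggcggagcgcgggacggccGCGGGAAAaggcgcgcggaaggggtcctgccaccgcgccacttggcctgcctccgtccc
MCM7 (chr7:100101378-100101597, minus strand): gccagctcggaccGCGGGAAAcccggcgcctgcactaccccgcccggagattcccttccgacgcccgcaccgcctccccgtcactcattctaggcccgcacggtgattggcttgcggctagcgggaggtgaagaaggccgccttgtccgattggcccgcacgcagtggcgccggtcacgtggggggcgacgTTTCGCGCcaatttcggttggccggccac
CDT1 (chr16:88803589-88803808, plus strand): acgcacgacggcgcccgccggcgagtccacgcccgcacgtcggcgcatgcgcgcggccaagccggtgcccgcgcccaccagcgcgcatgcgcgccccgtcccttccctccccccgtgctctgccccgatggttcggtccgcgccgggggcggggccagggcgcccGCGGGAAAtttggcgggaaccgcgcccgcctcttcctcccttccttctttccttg

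In MCM2 a pair of words on opposite strands overlap to form a palindrome at positions 2 to 13, the RefSeq start being 0. In CDT1 and TYMS the word lies 35 to 28 and 39 to 32 bases before the RefSeq start. In each of the printed genes the GENCODE v29 span, given below, begins upstream of the RefSeq start. The printed windows of CDT1 and MCM7 lie wholly inside that span, so positions hold for the RefSeq start alone. Genes of origin recognition and licensing held a word in 6 of 8 windows, against 1 of 4 in deoxynucleotide supply (TYMS). At 48 h the median log2 fold change against DMSO was -0.40 in the 21 genes with a word (14 lower) and -0.37 in the 17 without (9 lower). Among tested genes 5.38% were called lower at 48 h. A match describes the letters of the window and no binding. Other forms of the E2F site were not searched, so a window without a word may still hold one. Another word, TTTGAA, part of the CHR element of mitotic genes, was in 1 of the 38 windows (2.63%), against 15 of 24 windows (62.5%) of a G2/M list and 9.66% of windows of tested genes.

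Total counts ran from 7349744 to 13200051 per library, and the 43 genes together took 30100 to 63087 of them. Levels are given as CPM, counts relative to library size with TMM factors. Each change is a log2 fold change fitted by edgeR, with its standard error (SE) and a p adjusted over all tested genes. In DMSO and in 96 h the replicates differed more from each other than in the other groups. Below, replicate 2 of each is called the library that stood apart, though a pair cannot show which is the odd one. The mitochondrial share of counts was 7.38% and 10.9% in replicates 1 and 2 of 96 h, the latter the highest of the 10. Within DMSO and 96 h the log2 difference of replicate 2 from replicate 1 rose with transcript GC content across genes (Spearman 0.571 and 0.289). At 48 h it fell with GC content by about the same size as at 96 h (-0.292). At 12 h and 24 h the values were -0.059 and -0.167. The sign depends on which replicate is subtracted, so the 48 h pair held a GC trend too. Replicates also differed in the 43 genes: at 12 h replicate 2 was higher in 3 of 43, with a median log2 difference from replicate 1 of -0.16, while in DMSO it was higher in 28, with a median of 0.080. Of 10 synovial sarcoma genes, 9 were measured and NTRK3 was at or near 0. SS18 stood between 224 and 261 CPM and TLE1 between 192 and 248. None of 5 leukocyte and 5 endothelial markers reached 1 CPM. Their summed levels were at most 0.466 and 0.196 CPM, and PTPRC, CD3E and PECAM1 were at 0. Of 5 skeletal muscle markers MYH3 passed 1 CPM and MYOD1 and MYOG were at 0 (summed 1.47 to 3.33 CPM). Of 5 fibroblast genes LUM, DCN, PDGFRA and THY1 passed 1 CPM and FAP was at 0 (summed 1801 to 2144 CPM).

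WA-68 was followed by lower replication transcripts, late and by a modest amount. After 12 h no gene of the 43 passed the edgeR test, after 24 h 3 had fallen, after 48 h 25 had fallen, and after 96 h 13 were lower than in DMSO. None was called higher at any time. The summed level of the 43 genes in replicates 1 and 2 was 4903 and 5172 CPM with DMSO, 5141 and 4633 after 12 h, 4528 and 4404.5 after 24 h, 3858 and 3762 after 48 h, and 4180.4 and 4224 after 96 h. The DMSO and 12 h libraries thus overlapped, and both 48 h libraries were the lowest of the 10. For 38 of the 43 genes the lowest group mean was at 48 h, as for 19.6% of tested genes, and for 25 of the 43 both 48 h libraries were below the other 8, as for 3.46% of tested genes. The mitochondrial share of counts was 8.75% and 8.46% in the 48 h libraries, above the 6.79% to 8.12% of DMSO, 12 h and 24 h, and its part in the 48 h values was not tested. The genes with another lowest group were CCNE1, lowest at 24 h, and ORC1, MCM2, POLE2 and RRM1, lowest at 96 h.

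**Figure D1:**
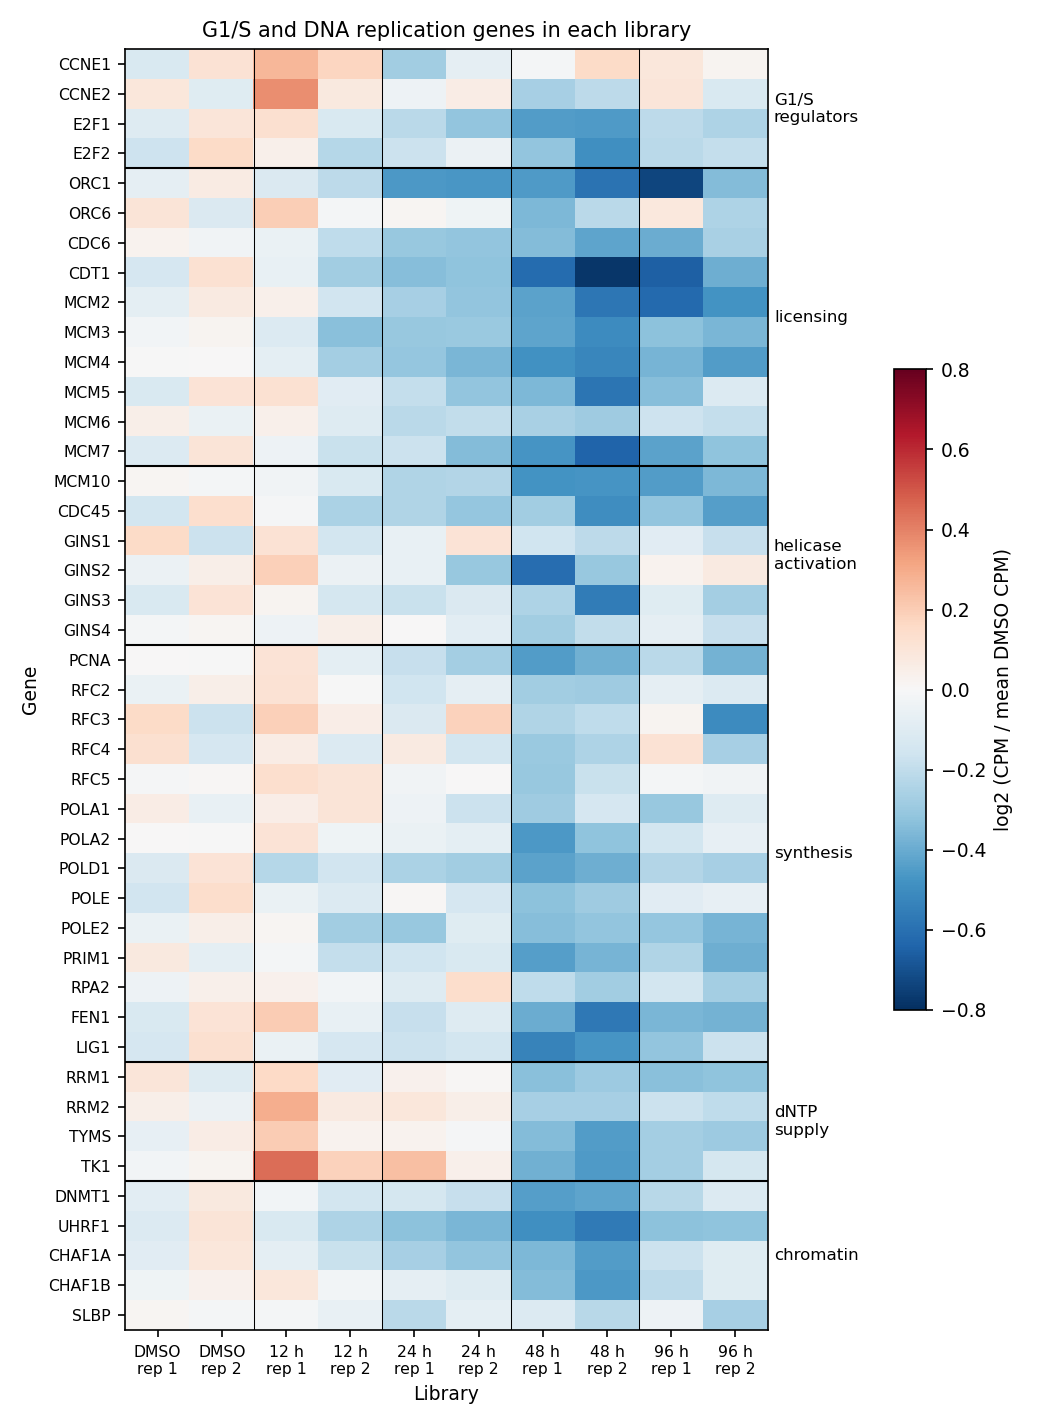
Level of each of the 43 genes (rows, grouped by role) in each of the 10 libraries (columns) as log2 of its CPM over the mean DMSO CPM, with blue for lower and red for higher. The 48 h columns are blue in nearly every row, with CCNE1 the exception, while the 12 h columns hold both colours.

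At 12 h edgeR called 0 of the 43 genes in either direction. An unadjusted p under 0.05 was reached by 2 (MCM3 lower, TK1 higher). The share of all tested genes at that unadjusted threshold was not counted. DESeq2 and limma-voom called 0 of the 43. By adjusted p, edgeR called 1.92% of all tested genes lower and 1.23% higher. The median log2 fold change of the 43 was -0.029, against -0.0021 over all tested genes. At 24 h ORC1, MCM4 and UHRF1 fell, 3 of 43 (6.98%), where 2.25% of tested genes were called lower and 1.34% higher. The median was -0.15, and 35 of the 43 log2 fold changes were negative, as were 50.1% of those of tested genes. At 24 h 16 of the 43 reached an unadjusted p under 0.05, with no count of all tested genes at that threshold. At 48 h 25 of 43 fell (58.1%), against 5.38% of tested genes called lower and 4.01% called higher. Log2 fold changes of the 43 ran from -0.68 in CDT1 to 0.086 in CCNE1, with a median of -0.39 over the 43 and -0.0070 over all tested genes. Both 48 h libraries lay below both DMSO libraries in 41 of the 43 genes, an order found in 25.2% of tested genes. At 96 h 13 of 43 were lower than in DMSO (30.2%), against 6.86% of tested genes called lower and 6.14% higher, and the median was -0.21. All 4 comparisons use the same 2 DMSO libraries. In the joint test of the 4 times 23 of 43 genes passed, against 10.9% of tested genes.

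The 24 h calls rested on single libraries: the count was 0 without replicate 2 of DMSO or without either 24 h library, 1 without either 12 h library, 8 without replicate 1 of DMSO, and 5 when replicate 2 of 96 h was left out. At 48 h it was 15 without replicate 1 and 7 without replicate 2 of 48 h, and 30 without the 2 libraries that stood apart. At 96 h it was 6 without replicate 1 and 8 without replicate 2 of 96 h. Leaving out the 2 libraries that stood apart was chosen after the data were seen, and it takes both of their pairs out of the pooled spread. MCM4, MCM7, CDT1, MCM10, LIG1, DNMT1 and UHRF1 kept their 48 h call without any 1 of the 10 libraries, and MCM2, MCM3, MCM4 and MCM10 their 96 h call. Over the 12 other planned settings the former 7 also kept the 48 h call. At 96 h only MCM2 did, and MCM3, MCM4 and MCM10 lost the call with only the 4 libraries compared.

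Among the 4 G1/S regulators, the E2F factors were lower at 48 h and the E-type cyclins were not called. E2F1, an activating E2F and itself an E2F target, stood at 58.99 and 67.9 CPM with DMSO, 69.4 and 58.3 after 12 h, 54.5 and 50.98 after 24 h, 46.5 and 46.4 after 48 h, and 54.9 and 53.5 after 96 h. Both 48 h libraries and both 24 h libraries were below both DMSO libraries, while those of 12 h overlapped DMSO. E2F1 fell at 48 h (log2 change of -0.44, SE 0.11, adjusted p = 0.00903) and not by the test at 96 h (-0.22, adjusted p = 0.177). The call at 48 h was lost without replicate 2 of DMSO or either 48 h library. E2F2, a second activating E2F, stood at 50.1 and 62.4 CPM with DMSO, 57.8 and 47.9 after 12 h, 49.9 and 54.4 after 24 h, 45.2 and 39.97 after 48 h, and 48.5 and 49.3 after 96 h. Its 48 h fall (-0.39, SE 0.12, adjusted p = 0.0379) was lost without replicate 2 of DMSO or without any 1 of the 12 h, 24 h or 48 h libraries.

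CCNE1, the cyclin that activates CDK2 at the end of G1, stood at 14.2 and 16.8 CPM with DMSO, 18.7 and 17.5 after 12 h, 12.8 and 14.8 after 24 h, 15.4 and 17.3 after 48 h, and 16.5 and 15.7 after 96 h. The 12 h libraries were above both DMSO libraries, the other times overlapped DMSO, and the 24 h libraries were below those of 12 h, 48 h and 96 h. The log2 fold change of CCNE1 at 48 h was 0.086 (95% interval -0.22 to 0.39), the 1 positive value among the 43. CCNE2, its paralog, stood at 38.4 and 33.8 CPM with DMSO, 46.7 and 38.03 after 12 h, 35.04 and 37.7 after 24 h, 30.04 and 31.2 after 48 h, and 38.6 and 33.1 after 96 h. Its 48 h libraries were below both DMSO libraries (-0.24, 95% interval -0.50 to 0.0095, adjusted p = 0.239), and at 96 h its value was -0.0081. CCNE2 shares up to 1628 bases of exon with INTS8 on the opposite strand, and whether reads were counted by strand, from libraries labelled stranded, is not given in the sources used here.

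Origin recognition and licensing held 2 of the 3 genes called at 24 h and the largest change at 48 h, that of CDT1. In this role 0 of 10 genes were called at 12 h, 2 fell at 24 h, 8 at 48 h and 7 at 96 h, with medians of -0.12, -0.29, -0.48 and -0.36. ORC1 (ENSG00000085840, chromosome 1, 52372829 to 52404459), the largest subunit of the origin recognition complex, stood at 38.3 and 42.2 CPM with DMSO, 37.2 and 34.8 after 12 h, 29.3 and 29.2 after 24 h, 29.5 and 26.8 after 48 h, and 24.2 and 31.7 after 96 h. Every 24 h, 48 h and 96 h library was below both DMSO libraries, and so were both 12 h libraries. ORC1 fell at 24 h by 0.46 (log2; SE 0.12, adjusted p = 0.036), by 0.51 at 48 h (adjusted p = 0.00991) and by 0.54 at 96 h (adjusted p = 0.00414). The 24 h call was lost without replicate 2 of DMSO or any 12 h or 24 h library, the 48 h call without replicate 2 of 48 h, and the 96 h call without replicate 1 of 96 h.

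CDT1 (ENSG00000167513, chromosome 16, 88803213 to 88809258), which brings MCM rings to origins and is limited to G1 by its degradation, had the largest 48 h change of the 43 genes. It stood at 41.7 and 49.6 CPM with DMSO, 43.8 and 37.7 after 12 h, 36.04 and 36.5 after 24 h, 29.8 and 26.6 after 48 h, and 29.03 and 34.8 after 96 h. The 24 h, 48 h and 96 h libraries were all below both DMSO libraries, and 48 h held the lowest value. CDT1 fell 1.61-fold at 48 h (log2 change of -0.68, SE 0.12, adjusted p = 0.000974) and 1.43-fold at 96 h (-0.52, adjusted p = 0.0051), the 96 h call being lost without replicate 1 of 96 h. CDC6, an ATPase that loads MCM rings with CDT1, fell at 48 h (-0.39, adjusted p = 0.00989) and 96 h (-0.33, adjusted p = 0.018), the former lost without either 48 h library and the latter without replicate 1 of DMSO or of 96 h. ORC6, a further origin recognition subunit, did not pass the test (48 h -0.29, adjusted p = 0.17).

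Of the 6 subunits of the MCM2 to MCM7 helicase ring, MCM2, MCM3, MCM4, MCM5 and MCM7 fell at 48 h. MCM2 (ENSG00000073111, chromosome 3, 127598223 to 127622436) stood at 168 and 186 CPM with DMSO, 182 and 159 after 12 h, 148 and 142 after 24 h, 132 and 119 after 48 h, and 115 and 127 after 96 h. Its 4 libraries of 48 h and 96 h were the lowest of the 10, and its 12 h libraries overlapped DMSO. The log2 fold change of MCM2 was -0.50 at 48 h (SE 0.098, adjusted p = 0.00204) and -0.55 at 96 h (adjusted p = 0.000468), the largest 96 h change of the 43. Without replicate 2 of 48 h the 48 h call was lost. MCM4 (ENSG00000104738, chromosome 8, 47960185 to 47978160) stood at 535 and 537 CPM with DMSO, 508 and 443 after 12 h, 432 and 417 after 24 h, 384 and 374 after 48 h, and 415 and 393 after 96 h. No treated library of MCM4 reached the DMSO level, and 24 h was already apart (-0.34, SE 0.085, adjusted p = 0.0276, lost without replicate 2 of DMSO or either 24 h library). MCM4 fell by 0.50 at 48 h (adjusted p = 0.000601) and by 0.41 at 96 h (adjusted p = 0.00203).

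MCM7 (ENSG00000166508, chromosome 7, 100092728 to 100101940) stood at 366 and 422 CPM with DMSO, 382 and 349 after 12 h, 349 and 309 after 24 h, 284 and 253 after 48 h, and 292 and 315 after 96 h. Its 24 h, 48 h and 96 h libraries were below both of DMSO, and 48 h held the lowest pair. The change was -0.55 at 48 h (SE 0.097, adjusted p = 0.00078) and -0.38 at 96 h (adjusted p = 0.0102, lost without replicate 2 of DMSO or replicate 1 of 96 h). MCM3 fell at 48 h (-0.46, adjusted p = 0.002) and 96 h (-0.34, adjusted p = 0.0119), and MCM5 at 48 h alone of the 4 times (-0.46, adjusted p = 0.0089; 96 h -0.22, adjusted p = 0.202). The 48 h calls of MCM3 and MCM5 were lost without replicate 2 of 48 h, and that of MCM5 also without replicate 2 of DMSO. MCM6 missed the threshold at 48 h (-0.27, 95% interval -0.46 to -0.086, adjusted p = 0.058).

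Per kilobase of GENCODE v29 exon, the 6 ring subunits averaged 56.7 CPM per kb in DMSO, 52.04 at 12 h, 46.6 at 24 h, 40.9 at 48 h and 44.2 at 96 h. The highest subunit was MCM7, with 89.8 CPM per kb in DMSO, and the lowest was MCM5, with 17.03. The ratio of highest to lowest subunit stayed between 4.73 and 5.28 in the 5 groups. Relative to the mean of the 6, the level of MCM2 went from 0.637 in DMSO to 0.559 at 96 h and that of MCM6 from 0.744 to 0.843. Exon length here comes from every annotated transcript, so the order of subunits depends on which are used.

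**Figure D2:**
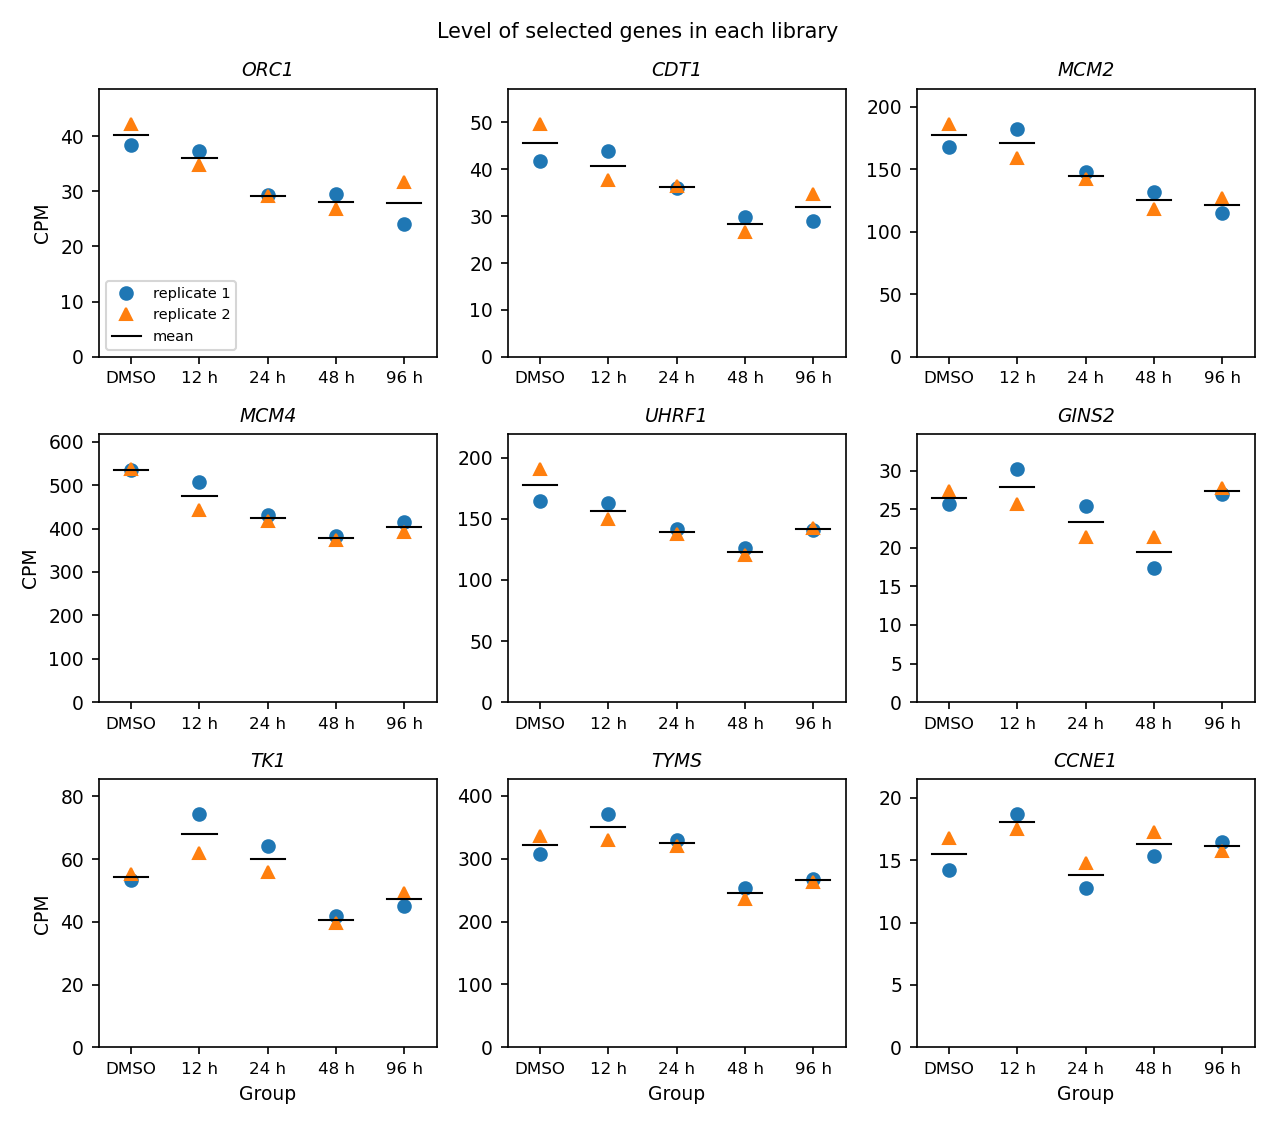
CPM (vertical axis, from 0) of 9 genes in the 5 groups, with replicate 1 as circles, replicate 2 as triangles and the mean as a line. ORC1, CDT1, MCM2, MCM4 and UHRF1 lie below both DMSO libraries from 24 h on, and ORC1, MCM4 and UHRF1 already do at 12 h. TK1 and TYMS are lower from 48 h. GINS2 is low at 24 h and 48 h but not at 96 h, and CCNE1 is highest at 12 h and lowest at 24 h.

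Of the 6 helicase activation genes 0 were called at 12 h and 24 h. At 48 h 2 fell (33.3%, against 5.38% of tested genes) and at 96 h 1 (16.7%, against 6.86%). MCM10, which helps activate the loaded helicase, stood at 92.1 and 90.1 CPM with DMSO, 89.3 and 83.5 after 12 h, 76.98 and 77.5 after 24 h, 65.5 and 65.7 after 48 h, and 66.8 and 71.00 after 96 h. Its 4 late libraries were the lowest, and it fell by 0.47 at 48 h (SE 0.090, adjusted p = 0.00147) and by 0.41 at 96 h (adjusted p = 0.00302). GINS2, a subunit of the GINS complex of the active helicase, stood at 25.6 and 27.3 CPM with DMSO, 30.2 and 25.6 after 12 h, 25.4 and 21.4 after 24 h, 17.3 and 21.5 after 48 h, and 26.97 and 27.8 after 96 h. Its 24 h and 48 h libraries were below both of DMSO, and those of 12 h and 96 h overlapped DMSO. GINS2 fell at 48 h (-0.45, SE 0.14, adjusted p = 0.0397, lost without any 1 of 6 libraries), with 0.050 at 96 h against DMSO (95% interval -0.22 to 0.32). From 48 h to 96 h its log2 change was 0.50 (SE 0.14, adjusted p = 0.278), the largest of the 43 in that step and not past the threshold.

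CDC45, the third part of the active helicase, stood at 34.04 and 41.5 CPM with DMSO, 37.6 and 31.7 after 12 h, 32.02 and 30.5 after 24 h, 31.2 and 26.8 after 48 h, and 30.3 and 27.8 after 96 h. Its 24 h, 48 h and 96 h libraries were below both DMSO libraries, with 48 h and 96 h changes of -0.37 (adjusted p = 0.0681) and -0.36 (adjusted p = 0.059) that missed the threshold. GINS4 stood at 61.6 and 62.8 CPM with DMSO, 60.6 and 64.2 after 12 h, 62.4 and 58.6 after 24 h, 51.3 and 54.2 after 48 h, and 59.2 and 54.7 after 96 h. Both late groups were below DMSO, with a change of -0.24 at 48 h (95% interval -0.44 to -0.041). GINS1 (-0.19, adjusted p = 0.319) and GINS3 (-0.38, adjusted p = 0.0959) were not called at 48 h, so 1 of the 4 GINS subunits was.

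Among the 14 genes of polymerases, clamp and Okazaki fragment maturation, 0 were called at 12 h and 24 h. At 48 h 6 fell (42.9%, against 5.38% of tested genes) and at 96 h 2 (14.3%, against 6.86%). The 6 were PCNA, POLA2, POLD1, PRIM1, FEN1 and LIG1. FEN1, the nuclease that trims Okazaki fragments, stood at 48.2 and 56.6 CPM with DMSO, 60.4 and 50.3 after 12 h, 46.1 and 48.7 after 24 h, 39.9 and 35.3 after 48 h, and 40.7 and 40.3 after 96 h. Both late groups were below DMSO, with -0.47 at 48 h (SE 0.11, adjusted p = 0.0102) and -0.36 at 96 h (adjusted p = 0.0336). The 48 h call was lost without replicate 2 of DMSO or of 48 h and the 96 h call without any 1 of 5 libraries. PCNA, the sliding clamp, stood at 132 and 132 CPM with DMSO, 142 and 125 after 12 h, 116 and 109 after 24 h, 96.6 and 101 after 48 h, and 114 and 101 after 96 h. It overlapped DMSO at 12 h and lay below it from 24 h on. PCNA fell at 48 h (-0.42, SE 0.095, adjusted p = 0.00696) and 96 h (-0.29, adjusted p = 0.0432). The 48 h call was lost without either 48 h library and the 96 h call without any 1 of 9 libraries.

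LIG1, the ligase that seals Okazaki fragments, stood at 91.9 and 110.3 CPM with DMSO, 97.6 and 92.3 after 12 h, 89.8 and 91.5 after 24 h, 69.8 and 73.02 after 48 h, and 81.3 and 89.8 after 96 h. The 48 h pair was the lowest, and 96 h lay between. LIG1 fell at 48 h (-0.50, SE 0.10, adjusted p = 0.00234) and was not called at 96 h (-0.24, adjusted p = 0.115). POLD1, the catalytic subunit of polymerase delta, stood at 89.5 and 105 CPM with DMSO, 82.7 and 87.2 after 12 h, 81.5 and 80.04 after 24 h, 72.2 and 74.01 after 48 h, and 82.6 and 80.5 after 96 h. All 8 treated libraries were below both of DMSO, and the 48 h fall was -0.40 (SE 0.095, adjusted p = 0.00799), lost without replicate 2 of DMSO or either 48 h library. POLA2, the regulatory subunit of polymerase alpha, stood at 30.3 and 30.1 CPM with DMSO, 32.5 and 29.5 after 12 h, 29.1 and 28.6 after 24 h, 21.95 and 24.2 after 48 h, and 27.2 and 28.9 after 96 h. Its 48 h fall (-0.39, adjusted p = 0.0358) was lost without any 1 of the 8 DMSO, 12 h, 24 h and 48 h libraries. PRIM1, the catalytic primase subunit, fell at 48 h too (-0.41, adjusted p = 0.0292), a call lost without any 1 of 5 libraries.

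No listed subunit of the clamp loader was called against DMSO. RFC2, RFC3, RFC4 and RFC5 had 48 h changes of -0.28, -0.23, -0.28 and -0.24, with adjusted p from 0.0729 to 0.352. POLE, the catalytic subunit of polymerase epsilon, was just outside the threshold at 48 h (-0.31, adjusted p = 0.0503). POLA1 (-0.21), POLE2 (-0.32) and RPA2 (-0.23), a subunit of the single-strand binding complex, did not pass the test at any time. For every one of these 14 genes both 48 h libraries were below both DMSO libraries, an order found in 25.2% of tested genes.

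The 4 genes of deoxynucleotide supply had no negative change until 48 h. All 4 had positive log2 fold changes at 12 h and at 24 h, none called, and 3 of 4 fell at 48 h (5.38% of tested genes). TK1 (ENSG00000167900, chromosome 17, 78174075 to 78187233), the thymidine kinase of S phase, stood at 53.5 and 55.3 CPM with DMSO, 74.2 and 61.8 after 12 h, 64.3 and 55.9 after 24 h, 41.7 and 39.7 after 48 h, and 45.1 and 49.3 after 96 h. Both 12 h and both 24 h libraries were above both of DMSO, and the 4 later ones were below. The change of TK1 was 0.32 at 12 h (SE 0.11, adjusted p = 0.102), not called. With library size as the only scaling or with an offset for GC content it passed (adjusted p = 0.0476 and 0.0091). TK1 fell at 48 h against DMSO (-0.42, adjusted p = 0.0178, lost without either 48 h library) and against 24 h (-0.56, SE 0.11, adjusted p = 0.0142).

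TYMS (ENSG00000176890, chromosome 18, 657604 to 673578), thymidylate synthase, stood at 308 and 337 CPM with DMSO, 371 and 329 after 12 h, 329 and 321 after 24 h, 254 and 236 after 48 h, and 268 and 263 after 96 h. The 12 h and 24 h libraries overlapped DMSO, and the 48 h and 96 h libraries lay below all of these. TYMS fell at 48 h against DMSO (-0.40, SE 0.089, adjusted p = 0.00613), at 48 h against 24 h (-0.41, adjusted p = 0.0293) and at 96 h against DMSO (-0.28, adjusted p = 0.037). The 48 h call was lost without replicate 2 of 48 h and the 96 h call without any 1 of 8 libraries. ENOSF1 lies on the opposite strand and shares up to 719 bases of exon with TYMS. It held 10355 counts over all libraries against 27741 for TYMS.

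RRM2, the subunit of ribonucleotide reductase that is made in S phase, stood at 197 and 184 CPM with DMSO, 233 and 200.04 after 12 h, 203 and 197 after 24 h, 159 and 158 after 48 h, and 169 and 165 after 96 h. It was above DMSO at 12 h and 24 h and below at 48 h, where its change missed the threshold (-0.27, adjusted p = 0.0745). RRM1, the large subunit, stood at 135 and 117 CPM with DMSO, 141 and 118 after 12 h, 129 and 127 after 24 h, 99.95 and 103 after 48 h, and 99.7 and 101 after 96 h. It fell at 48 h (-0.31, adjusted p = 0.046) and at 96 h (-0.33, adjusted p = 0.0264), and these calls were lost without any 1 of 7 and of 4 libraries. The 4 genes were all lower at 96 h than at 12 h: TK1 by 0.53 on the log2 scale (adjusted p = 0.0044), TYMS by 0.40 (0.00959), RRM2 by 0.37 (0.0216) and RRM1 by 0.37 (0.0347). None of these 4 calls held without replicate 1 of 12 h, the library in which 40 of the 43 genes were higher than in its partner.

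In the role of chromatin copying and histone supply, 1 of 5 genes fell at 24 h, 4 at 48 h and 1 at 96 h. The shares of tested genes called lower at these times were 2.25%, 5.38% and 6.86%. UHRF1 (ENSG00000276043, chromosome 19, 4903080 to 4962154), which recruits DNMT1 to newly copied DNA, stood at 164 and 191 CPM with DMSO, 163 and 149.6 after 12 h, 142 and 138 after 24 h, 126 and 120.02 after 48 h, and 141 and 142 after 96 h. All 8 treated libraries were below both DMSO libraries. UHRF1 fell at 24 h (-0.34, SE 0.094, adjusted p = 0.0399), 48 h (-0.53, adjusted p = 0.000931) and 96 h (-0.32, adjusted p = 0.0224). The 24 h call was lost without any 1 of 7 libraries, and the 96 h call without replicate 2 of DMSO or either 96 h library.

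DNMT1, the maintenance DNA methyltransferase, stood at 433 and 484 CPM with DMSO, 452 and 414 after 12 h, 416 and 404 after 24 h, 338 and 343 after 48 h, and 394 and 426 after 96 h. Its 48 h pair was the lowest, with -0.43 at 48 h (SE 0.087, adjusted p = 0.0026) and -0.16 at 96 h (adjusted p = 0.244). CHAF1A, the large subunit of the histone chaperone that assembles chromatin behind forks, stood at 133 and 151 CPM with DMSO, 135 and 126 after 12 h, 118 and 114 after 24 h, 111 and 105 after 48 h, and 126 and 133 after 96 h. CHAF1B, its partner, stood at 62.4 and 65.4 CPM with DMSO, 68.1 and 62.96 after 12 h, 60.8 and 59.6 after 24 h, 50.3 and 46.5 after 48 h, and 55.2 and 59.8 after 96 h. Both were lowest at 48 h and closer to DMSO at 96 h. CHAF1A (-0.40, adjusted p = 0.00813) and CHAF1B (-0.40, adjusted p = 0.0103) fell at 48 h and were not called at 96 h (-0.13 and -0.15). Both 48 h calls were lost without replicate 2 of 48 h, and that of CHAF1A also without replicate 2 of DMSO. SLBP, which binds histone transcripts of S phase, was not called at any time (48 h -0.16, 95% interval -0.37 to 0.040).

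**Figure D3:**
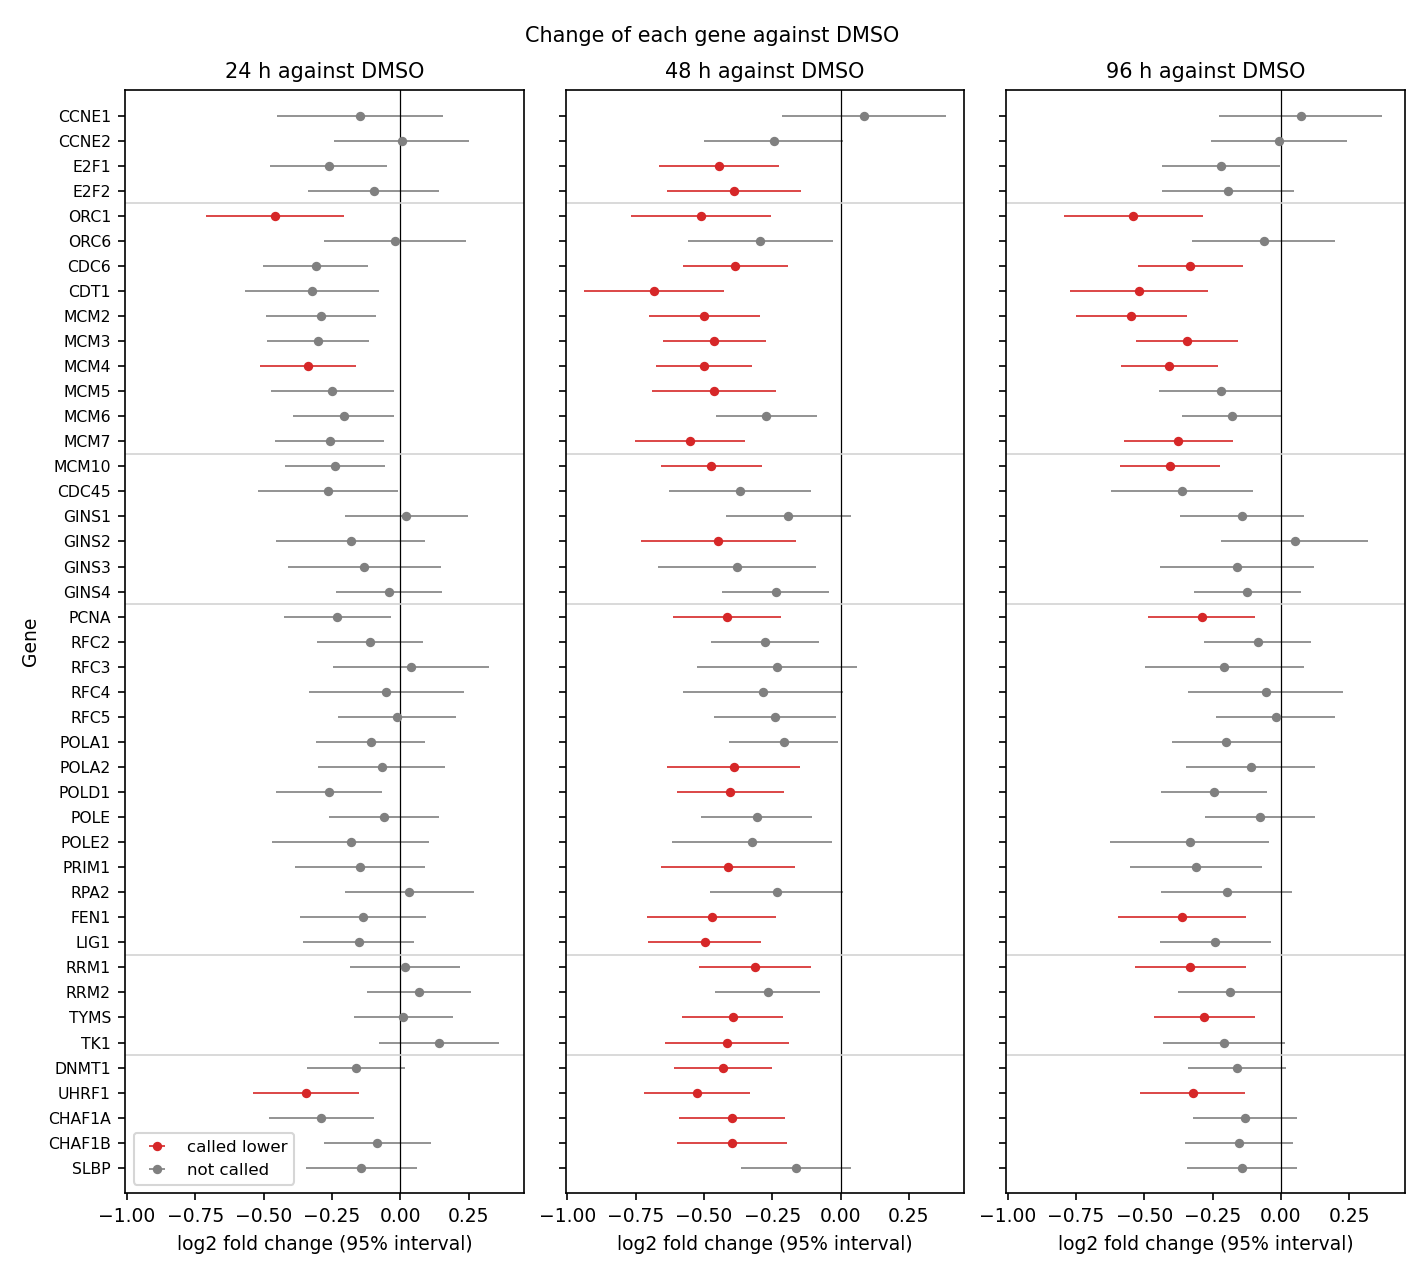
Log2 fold change against DMSO (horizontal axis) of the 43 genes at 24, 48 and 96 h, with 95% intervals from the edgeR fit; red points were called lower and grey points were not called. The red points number 3, 25 and 13, and at 96 h most points have moved back toward 0.

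The fold changes between treated times compare no DMSO library. The DMSO pair still entered the scaling, the filter and the pooled spread behind each p. From 12 h to 24 h 40 of the 43 log2 changes were negative (50.4% of tested genes), with a median of -0.13. None was called by edgeR, DESeq2 or limma-voom, and by adjusted p edgeR called 0% of all tested genes in this step. An unadjusted p under 0.05 was reached by 6, with no count of all tested genes at that threshold. From 24 h to 48 h 42 of 43 were negative (50.8% of tested genes), with a median of -0.23. Both 48 h libraries were below both 24 h libraries in 37 genes (21.4% of tested genes). TK1 and TYMS were called, 2 of 43 (4.65%), where 0.562% of tested genes were called lower and 0.195% higher. Without any 1 of the 24 h or 48 h libraries that count was 0, and without either 12 h library it was 1. Without either DMSO library it was 4, and without the 2 libraries that stood apart it was 10.

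From 48 h to 96 h 38 of 43 changes were positive and 5 negative, where 49.6% of tested genes were negative. The median was 0.13, with both 96 h libraries above both 48 h libraries in 26 genes (20.2% of tested genes). None was called by edgeR, DESeq2 or limma-voom. An unadjusted p under 0.05 was reached by 9, but all tested genes were not counted at that threshold, so the 9 have no background share. The 9 were GINS2, LIG1, POLA2, POLE, MCM5, DNMT1, UHRF1, CHAF1A and CHAF1B, with log2 changes from 0.20 to 0.50. By adjusted p, a different rule, edgeR called 0.0183% of tested genes higher. By role the median of this step was 0.25 in chromatin copying, 0.21 in G1/S regulators, 0.14 in polymerases and clamp, 0.11 in licensing, 0.097 in deoxynucleotide supply and 0.091 in helicase activation.

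At 96 h against 12 h 7 of 43 genes were lower (16.3%, against 1.74% of tested genes called lower and 2.39% higher). They were MCM2, MCM10, FEN1, RRM1, RRM2, TYMS and TK1. Here too DMSO entered only the scaling, the filter and the pooled spread. MCM2 changed by -0.50 (SE 0.099, adjusted p = 0.00382), FEN1 by -0.45 (adjusted p = 0.0235) and MCM10 by -0.33 (adjusted p = 0.0375). The count was 0 without replicate 1 of 12 h, 4 without replicate 2 of 96 h, and 12 without the 2 libraries that stood apart.

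**Figure D4:**
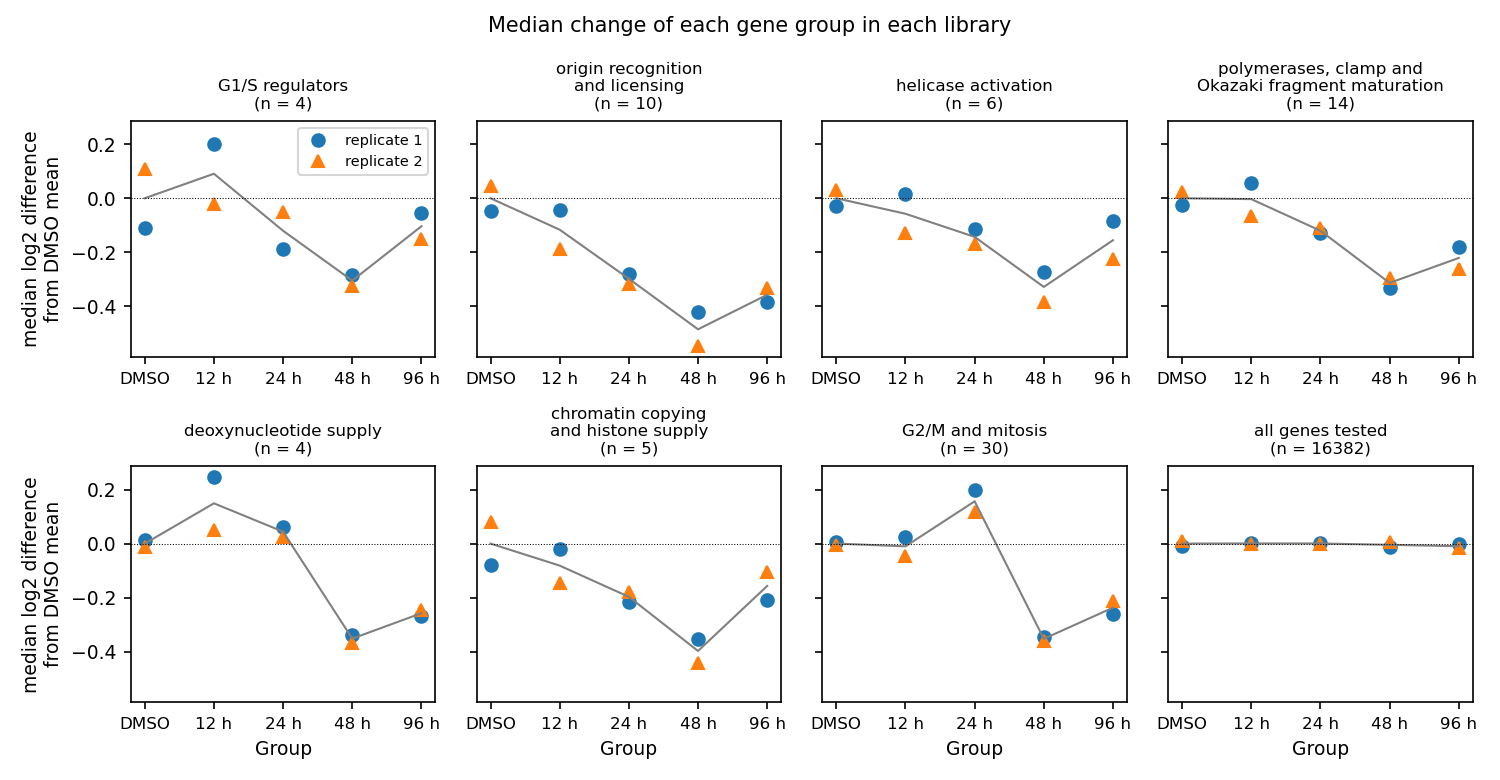
Median log2 difference from the DMSO mean (vertical axis) in each library for the 6 roles, a G2/M list and all tested genes, with replicate 1 as circles, replicate 2 as triangles and the mean of both as a line. Licensing declines from 24 h, deoxynucleotide supply is at or above DMSO until 24 h, the G2/M list is above DMSO at 24 h, and the 6 roles and the G2/M list are lowest at 48 h.

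Some further genes of the pathway fell at 48 h and 96 h, and most genes of each list were not called. Among all tested genes 5.38% were called lower at 48 h and 6.86% at 96 h. Of 22 other licensing, firing and fork genes 4 fell at 48 h (18.2%: MCMBP, TICRR, RECQL4 and CLSPN). At 96 h 5 were lower (22.7%: GMNN, DBF4, TICRR, RECQL4 and ATAD5). TICRR, which helps load CDC45, changed by -0.40 at 48 h (adjusted p = 0.00721). CLSPN, a mediator of the fork checkpoint, changed by -0.37 (adjusted p = 0.0121), and RECQL4, a helicase of replication initiation, by -0.43 (adjusted p = 0.0102). The median of the list was -0.19 at 48 h and -0.20 at 96 h. Of 13 other polymerase, clamp loader and fragment genes 2 fell at 48 h (15.4%: POLD2 and POLE3) and 2 at 96 h (15.4%: POLE3 and PRIM2). The 48 h median was -0.23. POLE3, a histone-fold subunit of polymerase epsilon, changed by -0.45 at 48 h (adjusted p = 0.0174), while RPA1 (-0.22) and RPA3 (-0.46), subunits of the single-strand binding complex, were not called against DMSO.

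Of 13 other nucleotide and chromatin supply genes 3 fell at 48 h (DCTPP1, ASF1B and HELLS) and 3 at 96 h (DCK, DCTPP1 and HELLS). Each count is 23.1%, against 5.38% and 6.86% of tested genes called lower. SAMHD1, which breaks down deoxynucleotides, rose at 96 h (0.36, SE 0.098, adjusted p = 0.0136), where 6.14% of tested genes were called higher. DCTPP1, a pyrophosphatase that cleans the nucleotide pool, stood at 39.5 and 39.1 CPM with DMSO, 36.2 and 33.8 after 12 h, 26.00 and 26.7 after 24 h, 29.9 and 26.4 after 48 h, and 28.3 and 28.2 after 96 h. It was low by 24 h (-0.58, adjusted p = 0.00347), larger than any 24 h change among the 43. ASF1B, a histone chaperone, changed by -0.36 at 48 h (adjusted p = 0.041) and HELLS, a remodeller linked to DNA methylation, by -0.33 (adjusted p = 0.0346). Of 18 S-phase checkpoint and recombination genes 1 fell at 24 h (5.56%: XRCC2), where 2.25% of tested genes were called lower. Counts of 6 (33.3%) were reached at 48 h and at 96 h, with medians of -0.28 and -0.25. EXO1, a nuclease of repair, changed by -0.46 at 48 h (adjusted p = 0.00404), CDC25A, the phosphatase that activates CDK2, by -0.46 (adjusted p = 0.011), and BLM, a helicase of recombination, by -0.36 (adjusted p = 0.0156).

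Of 25 E2F, pocket protein and CDK genes 2 fell at 12 h (8%, against 1.92% of tested genes called lower). These were MYC and CCND2, and both were lower at all 4 times. CCND2, a D-type cyclin that acts on RB with CDK4 or CDK6, stood at 484 and 448 CPM with DMSO, 272 and 269 after 12 h, 276 and 273 after 24 h, 336 and 322 after 48 h, and 266 and 267 after 96 h. Every treated library was below both DMSO libraries, with a 12 h change of -0.78 (adjusted p = 5.62e-06). MYC, a growth factor-responsive transcription factor, was -1.12 at 12 h (adjusted p = 4.93e-06) and -1.28 at 96 h (adjusted p = 1.34e-07). At 48 h 6 of the 25 fell (24%, against 5.38% of tested genes): TFDP1, CDK2, CCNA2, CCND2, CDKN2C and MYC. CCNA2, the cyclin of S phase and G2, stood at 95.8 and 88.2 CPM with DMSO, 95.04 and 87.8 after 12 h, 113 and 107 after 24 h, 71.2 and 72.04 after 48 h, and 75.9 and 74.8 after 96 h. It was highest at 24 h and fell from there to 48 h (-0.62, adjusted p = 0.00228). At 24 h RB1 rose (0.41, adjusted p = 0.0378). At 96 h 6 of the 25 were lower (24%, against 6.86% of tested genes): E2F3, E2F5, CDK4, CCNA2, CCND2 and MYC. CDK6 (0.30, adjusted p = 0.0201) and CDKN1A, the CDK inhibitor p21 (0.66, SE 0.13, adjusted p = 0.0011), were higher, where 6.14% of tested genes were called higher. In these lists the genes named for a call, beyond the 3 of each list with the smallest joint p, were chosen after their values were seen.

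The G2/M and mitosis list, the next stage of the cell cycle, was lower at 48 h and not at 24 h. At 24 h its 30 genes had a median of 0.16 with 26 positive and 0 called by edgeR, while 50.1% of tested genes were negative. Of the 30 genes 8 had an unadjusted p under 0.05, a threshold at which all tested genes were not counted. DESeq2 and limma-voom each called 1 lower and 0 higher. The 43 replication genes had a 24 h median of -0.15 with 8 positive. From 24 h to 48 h 19 of 30 G2/M genes fell (63.3%), with a median of -0.49, beside 2 of 43 and -0.23 in the replication genes. In that step 0.562% of tested genes were called lower. At 48 h against DMSO 17 of 30 G2/M genes were lower (56.7%, against 5.38% of tested genes), with a median of -0.33. At 96 h 5 of 30 were lower (16.7%, against 6.86% of tested genes), with a median of -0.21, beside -0.21 in the 43 replication genes. Of the 30, 29 were negative at 96 h, as were 51.2% of tested genes. CCNB1, the mitotic cyclin, stood at 120.1 and 120.1 CPM with DMSO, 121 and 109.96 after 12 h, 142 and 134 after 24 h, 89.3 and 87.1 after 48 h, and 94.95 and 93.6 after 96 h. It was above DMSO at 24 h and below it at 48 h (-0.44, adjusted p = 0.00272). BIRC5, survivin, changed by -0.43 at 48 h (adjusted p = 0.00307), and CDC25B, a phosphatase that activates CDK1, by -0.39 already at 12 h (adjusted p = 0.0226). The difference between the lists was not tested.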

How the data were processed

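Poly(A) RNA of 10 libraries was counted per gene. The submitters' processing notes name bcl2fastq, FastQC, Trim Galore, cutadapt, STAR, featureCounts and GRCh38. Their versions, the annotation release and the treatment of strand and multi-mapping reads were not given in the sources used here. Per the labels the libraries were stranded and paired-end. The deposited table holds raw counts as whole numbers, and every per-sample column was used. Counts were fitted in edgeR 4.0.16 (R 4.3.3) with TMM factors, filterByExpr by group, 1 mean per group and a quasi-likelihood F test over all 16382 tested genes. Calls required an adjusted p (Benjamini-Hochberg) under 0.05. The fit had 5 residual and 18.5 prior degrees of freedom, and its spread is pooled over the 5 groups of 2. The SE is the size of the log2 fold change over the square root of F, and 95% intervals use these degrees of freedom. p-values measure the spread between cultures of 1 line. The 7.17% common biological variation and the depth limit what can be called.

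Replicate numbers were not used to pair libraries, as the labels do not say whether they do. The correlation across genes of the difference of replicate 2 from replicate 1 between groups ran from -0.12 to 0.19. It cannot decide the matter, because the GC trend of that difference had opposite signs in different groups. Replicates within a group differed beyond counting noise. Positions and exon lengths are GENCODE v29 on GRCh38. GC content of the longest v29 transcript was available for 15694 of the genes tested. Every library's value is given for the genes of each role with the smallest joint p (up to 5 in roles of 10 or more, otherwise up to 4). Up to 3 of each other list, by the same p, and genes called at 24 h are named too. The genes, lists and alternatives were chosen with earlier results of these data known. Alternatives included DESeq2 1.42.0 and limma-voom (limma 3.58.1). The fits were tested on simulated data.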

Additional observations from a re-analysis of the deposited data

Results flagged for a closer look

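The effect against DMSO of 7 genes differed between 2 treated times by the edgeR test of that difference. Between 24 h and 48 h it differed by -0.41 in TYMS and -0.56 in TK1. Between 12 h and 96 h it differed by -0.50 in MCM2, -0.33 in MCM10, -0.45 in FEN1, -0.37 in RRM1, -0.37 in RRM2, -0.40 in TYMS and -0.53 in TK1. All are on the log2 scale with the later time lower. As given above, each of these calls was lost when some single library was left out.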

How the results depend on the processing

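In each of the 23 alternatives the median of the 43 genes was negative at 24 h (-0.23 to -0.088), 48 h (-0.44 to -0.33) and 96 h (-0.25 to -0.16), and at 12 h it ran from -0.0996 to 0.047. Where counts of genes called lower moved by over 1.5 times, the cause was not tested. At 24 h, with 3 in the main analysis, the count was 0 with library size only, 0 with only the 4 libraries compared, 0 at an adjusted p under 0.01, 11 with a GC-content offset and 11 with that offset and a replicate block. At 48 h, with 25, it was 16 with only the 4 libraries compared; within 1.5 times, it was 35 with the GC offset, 35 with the offset and block, and 30 without the 2 libraries that stood apart. At 96 h, with 13, it was 8 with library size only, 3 with only the 4 libraries, 5 at the stricter p, 20 with the GC offset and 21 with the offset and block. At 48 h against 24 h, with 2, it was 0 at the stricter p, 9 with the GC offset, 8 with the offset and block, 10 with the 4 libraries alone and 10 without the 2 libraries that stood apart, an alternative chosen after the data were seen. At 96 h against 12 h, with 7, it was 3 at the stricter p, 14 with the GC offset, 14 with the offset and block, and 12 without those 2 libraries. With 1 library left out, counts ran from 0 to 8 at 24 h, 7 to 27 at 48 h, 6 to 13 at 96 h, 0 to 4 at 48 h against 24 h and 0 to 10 at 96 h against 12 h; a lone library was assumed to vary like the other groups. The replicate block alone gave 2, 23 and 13 at 24, 48 and 96 h, 2 at 48 h against 24 h and 6 at 96 h against 12 h, and the replicate 2 minus replicate 1 differences correlated positively in 4 of 10 pairs of groups. No called gene of the 43 changed direction. The share of higher genes among all called moved from 39% to 62.4% at 12 h, 37.4% to 59.5% at 24 h, 42.7% to 60.3% at 48 h and 47.3% to 60.2% at 96 h with library size only.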
